A study of Bos taurus with 9 samples.

Results

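Morulae grown from KDM6A-injected cloned bovine embryos were compared with cloned embryos at the 8-cell stage, as 3 RNA sequencing libraries against 3. These are 6 of the 9 libraries of the series, chosen by their labels alone, and the other 3 are morulae that were not injected. All were clones from somatic cell nuclear transfer (SCNT): a body cell is fused with an egg cleared of its own chromosomes. According to the protocols in the labels, low-passage fibroblasts of a single female Holstein fetus gave the nuclei, and the recipient eggs came from abattoir ovaries and were matured in culture. The KDM6A morulae received mRNA coding for wild-type bovine KDM6A 1 h after activation, were collected on day 5 and were pooled in groups of 5 embryos. The 8-cell embryos carry the genotype label of a control and were not injected. Their labels repeat the morula protocol text, so no source used here states their own day of collection or pool size. The uninjected morulae shared the donor cells, the day and the pool size of the KDM6A morulae. The series' design text takes the 8-cell libraries from an earlier series. Developmental stage, injection and source series therefore cannot be told apart in the comparison of KDM6A morulae with 8-cell embryos. The labels do not tie the pools of a group to separate days or egg batches, and p-values then reflect only how far these libraries spread, which may be technical.

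Until about the 8-cell stage a bovine embryo runs largely on RNA stored in the egg. It then destroys that store and begins to transcribe its own genome, and in a clone the donor nucleus has to make the same change after leaving a fibroblast's program. The morula follows: cells flatten onto each other, form junctions and begin to split into an outer layer, which becomes trophectoderm (the future placenta), and inner cells, which hold the pluripotency factors. KDM6A removes the methyl mark on lysine 27 of histone H3 (H3K27), which polycomb complex 2 lays down on silenced genes.

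Expression is given as FPKM, which are fragments counted on a transcript, divided by its length and by the depth of the library. An FPKM is a share of a library, so a fall can mean fewer copies per embryo or a smaller share of a larger RNA pool, and in these pooled embryos fewer cells of a type cannot be told apart from less RNA per cell. Of 16129 genes listed in all 6 files, 10024 reached 1 FPKM in at least 3 of the 6 libraries and were tested. Fold changes are differences of mean log2(FPKM + 1), KDM6A morula minus 8-cell, and understate the change of low genes. "Rose" and "fell" mark genes with a Benjamini-Hochberg adjusted p under 0.05 in limma's moderated test over all 10024 genes. Values after ± are SDs over 3 libraries.

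The libraries separated by group. Below, "stage" is short for these groups, which also differ in injection and source series. Correlations of log2(FPKM + 1) over the shared genes were 0.9834 to 0.9928 within the KDM6A morulae, 0.9732 to 0.9787 within the 8-cell embryos and 0.8332 to 0.89 between them. Summed FPKM ran from 820346 to 936537, and between 8923 and 9721 rows reached 1 FPKM. KDM6A morula replicate 1 stood apart from its group: it lay more than 1 log2 unit outside both other libraries in 345 tested genes (3.44%), against 24 and 27 genes for replicates 2 and 3. The 8-cell libraries did so in 225 to 396 genes each.

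The injected gene was high where the labels place it. KDM6A stood at 35.6, 87.6 and 79.4 FPKM in the KDM6A morulae and 6.13, 9.41 and 10.7 FPKM in the 8-cell embryos. Replicate 1, the lowest injected pool, was still above every 8-cell library, and the groups did not overlap. Means were 67.6 ± 27.9 and 8.76 ± 2.37 FPKM (log2 fold change 2.74, SE 0.35, adjusted p = 5.92e-05), and a two-sided exact permutation test over these 6 libraries gave p = 0.1, the smallest that 3 against 3 can give. The uninjected morulae held 10.7, 13.9 and 10.7 FPKM, and KDM6A was higher in the injected ones by 2.33 on the log2 scale (adjusted p = 0.0147). That adjusted p was 0.108 without uninjected replicate 3, 0.0588 without KDM6A morula replicate 2 and 0.119 without KDM6A morula replicate 3. FPKM do not separate injected mRNA from the embryo's own transcript.

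More genes rose than fell from the 8-cell embryos to the KDM6A morulae. Of the 10024 genes tested, 6689 (66.7%) were called: 4121 (41.1%) rose and 2568 (25.6%) fell. The counts of every gene list below are to be read beside these shares. In 71.3% of genes all 3 libraries of a group lay on one side of the other 3. By size, 869 rises and 705 falls were under 1 log2 unit and 2064 rises and 1193 falls lay between 1 and 2, while 40 rises and 20 falls reached 5 or more. Tested against a change of 1 log2 unit with limma's treat, 1635 genes (16.3%) were higher and 880 (8.78%) lower. The median over all genes was 0.34 on the log2 scale, and it fell to 0.07 after quantile normalization, under which 3441 genes (34.3%) were higher and 3154 (31.5%) lower. The excess of rises, 61.6% of calls, was then 52.2%, and it was 55% under median-of-ratios scaling. Changes near the median are therefore relative to the scaling.

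**Figure D1:**
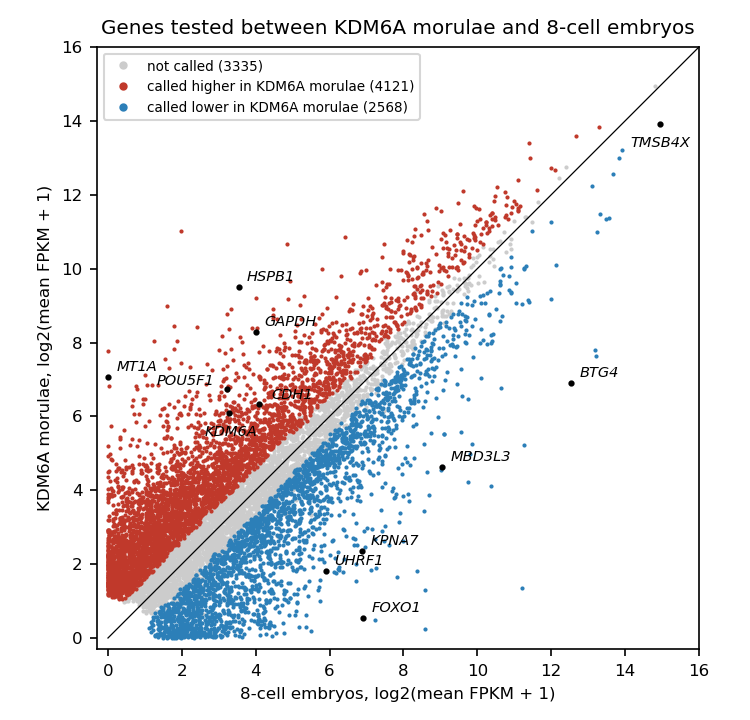
Mean expression of the 10024 tested genes, as log2(mean FPKM + 1), in 8-cell embryos (x axis) and KDM6A morulae (y axis), with 1 point per gene, red for the 4121 that rose, blue for the 2568 that fell and grey for the rest. The line marks equal levels, BTG4 and FOXO1 lie far below it, and HSPB1, GAPDH and the metallothionein gene MT1A lie far above it.

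The steepest rises included a heat shock protein, an enzyme of prostaglandin synthesis and galectins. HSPB1, a small heat shock protein that guards unfolded proteins and actin, stood at 688, 696 and 779.7 FPKM in the KDM6A morulae and 13.2, 17.1 and 1.51 FPKM in the 8-cell embryos (log2 fold change 6.38, SE 0.58, adjusted p = 6.99e-06). Every morula library was far above every 8-cell library, among which replicate 3 was the lowest. PTGES, which makes prostaglandin E2, stood at 218, 173 and 169 FPKM in the KDM6A morulae and 4.12, 0.52 and 1.04 FPKM in the 8-cell embryos (log2 fold change 6.21, adjusted p = 9.05e-07). The beta-galactoside-binding lectin LGALS7 stood at 1504, 1669.9 and 1689 FPKM in the KDM6A morulae and 52.8, 15.5 and 15.3 FPKM in the 8-cell embryos (log2 fold change 6.06, adjusted p = 9.71e-07). Its near-identical copy LGALS7B moved from 1.02 to 138 FPKM, and reads of the pair may be divided between them, so neither level is certain. A similar doubt holds for BRB, a ribonuclease of the pancreatic ribonuclease family, which moved from 2.42 ± 3.13 to 349 ± 188 FPKM (log2 fold change 6.96). TBC1D32, which acts in primary cilium signalling, stood at 286, 257 and 250.3 FPKM in the KDM6A morulae and 0.68, 2.37 and 1.04 FPKM in the 8-cell embryos (log2 fold change 6.87, adjusted p = 1.55e-07). The calcium-binding protein S100A5 was at 279.6, 198 and 316 FPKM in the morulae and at 7, 1.03 and 0 FPKM in the 8-cell embryos, where replicate 1 was the highest. Others in this set were the Rab-binding membrane protein RABAC1 (0.687 to 112 FPKM), the aminopeptidase ENPEP of the cell surface (0.727 to 106 FPKM), the mitochondrial nucleotide hydrolase HINT2 (0.593 to 86 FPKM), LIX1L (1.07 to 115 FPKM) and FAM151A (8.41 to 437 FPKM). These 12 genes were picked among genes whose groups do not overlap, so their lack of overlap follows from the selection. None of the 12 was called between injected and uninjected morulae (adjusted p from 0.0552 for HSPB1 to 0.93 for RABAC1).

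The steepest falls included transcripts known from the egg. BTG4, an adaptor that brings the CCR4-NOT deadenylase to maternal mRNA, was at 3360.4, 8658 and 5716 FPKM in the 8-cell embryos and 159.9, 86.8 and 107 FPKM in the KDM6A morulae (log2 fold change -5.58, SE 0.33, adjusted p = 5.87e-07). It ranked 10 among the nuclear transcripts of the 8-cell embryos by level. OOSP1, an oocyte-secreted protein, was at 864, 3707 and 2801 FPKM in the 8-cell embryos and 58.3, 20 and 30.8 FPKM in the KDM6A morulae (log2 fold change -5.93, adjusted p = 4.51e-06). FOXO1, a forkhead transcription factor, was at 84.7, 120.1 and 153 FPKM in the 8-cell embryos and 0.19, 0.66 and 0.5 FPKM in the KDM6A morulae (log2 fold change -6.35, adjusted p = 1.78e-07). All 3 of these genes dropped to a small part of their 8-cell level in every morula library, and their lack of overlap follows from the selection. BECN2, a beclin of the autophagy machinery, moved from 1325 ± 679 to 16.2 ± 3.31 FPKM, and FANK1 from 224 ± 174 to 2.16 ± 0.421 FPKM. CROT, which hands medium-chain acyl groups to carnitine in peroxisomes, moved from 152 to 2.7 FPKM, and the lysosomal mannosidase MANBA from 887 to 30.7 FPKM. FAM46C, a poly(A) polymerase, moved from 44.2 to 0.15 FPKM, the DNA glycosylase MUTYH from 137 to 2.57 FPKM, the general transcription factor subunit TAF9 from 372 to 9.9 FPKM and ID3, an inhibitor of helix-loop-helix factors, from 411 to 13.8 FPKM. The row named TMSB4 stood at 465, 309 and 382 FPKM in the 8-cell embryos and 3.52, 0 and 0.9 FPKM in the KDM6A morulae. It is a close copy of TMSB4X, the most abundant nuclear transcript at both stages, which fell less (26218, 39977 and 27920.1 FPKM in the 8-cell embryos and 14437, 16219 and 15359 FPKM in the KDM6A morulae), and the authors' counting may split their reads.

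**Figure D2:**
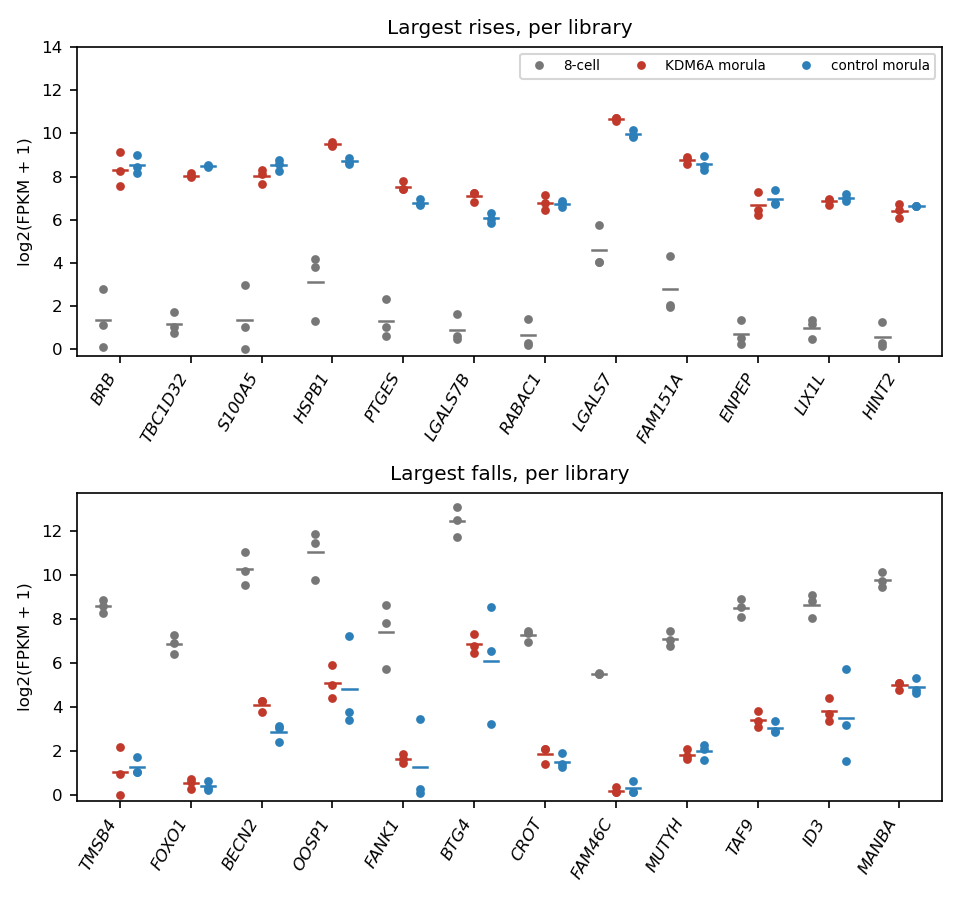
Expression in log2(FPKM + 1) of the 12 largest rises (top) and the 12 largest falls (bottom) among genes with a symbol of their own that is no placeholder, no overlap between groups and some signal at both stages. There is 1 point per library, grey for 8-cell embryos, red for KDM6A morulae and blue for uninjected morulae, and a bar at each mean of 3. In all 24 genes the grey points lie to one side of every red and blue point, which for the red points follows from the selection. The uninjected morulae spread widely in BTG4 (374, 8.35 and 90.4 FPKM).

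Some genes were listed at 0 at a single stage. All 3 8-cell libraries listed 86 tested genes at 0, 11 of them with a morula mean of at least 10 FPKM. Such a gene passed the filter on low values only through its level in the morulae, so that its direction was fixed by the selection and its call is not a result. The direction was fixed likewise for every gene under 1 FPKM in all 3 libraries of a stage. Examples are FOXO1 and FAM46C above and PABPC1L, TFCP2L1, FGFR4, COL4A1, KRT18, KRT8, CLDN4, CBX7, SLC1A3, SLC7A3, MT3, CCND2, THY1, FBN1, COL5A1, HAS2, EOMES and S100Z below. The counts of rises and falls include such genes. The zinc-binding metallothionein MT1A led them at 300.1, 42.1 and 58.3 FPKM in the morulae, with replicate 1 well above the other pools. The zinc importer SLC39A2 was at 39.98, 28 and 39 FPKM, the dipeptidase PEPD at 44.3, 19.8 and 23.8 FPKM and the peroxide-making oxidase DUOX2 at 16.7, 17.5 and 11.8 FPKM. FABP7, a fatty acid-binding protein, and DEGS2, a sphingolipid desaturase, were at 24.5, 8.58 and 8.34 and at 19.1, 7.62 and 12.4 FPKM. In the other direction 6 tested genes were listed at 0 in every KDM6A morula library, none with an 8-cell mean of 10 FPKM or more, and these passed the filter only through the 8-cell libraries. They include ALDH1A2, which makes retinoic acid (2.2, 3.3 and 1.77 FPKM in the 8-cell embryos), TAC3, which codes for neurokinin B (1.71, 3.9 and 3.12 FPKM), and DTHD1, BEND4 and FAM163A.

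Of the gene lists read here, oocyte and maternal transcripts had the lowest median. Of 31 tested members 27 fell and 2 rose, with a median of -2.66, where 25.6% of all genes fell and the median of all genes was 0.34. Beyond BTG4 and OOSP1, the zona pellucida genes of the egg coat moved together: ZP2 from 45.9 to 2.82 FPKM, ZP3 from 12.3 to 2.21 FPKM and ZP4 from 69.7 to 3.48 FPKM. The oocyte growth factors GDF9 and BMP15 also fell. GDF9 stood at 25.4, 28.4 and 21.2 FPKM in the 8-cell embryos and 3.57, 2.66 and 2.12 FPKM in the KDM6A morulae (log2 fold change -2.79, adjusted p = 8.98e-06), and BMP15 at 212, 206 and 227 FPKM in the 8-cell embryos and 15.3, 9.79 and 13.6 FPKM in the KDM6A morulae (log2 fold change -3.98, adjusted p = 4.37e-07). H1FOO, the linker histone of the egg, stood at 19.8, 22.5 and 17.9 FPKM in the 8-cell embryos and 1.5, 0.84 and 0.74 FPKM in the KDM6A morulae (log2 fold change -3.39, adjusted p = 2.96e-06). NPM2, the histone chaperone that decondenses sperm chromatin, moved from 71.8 to 2.39 FPKM, the cytostatic kinase MOS from 17 to 2.18 FPKM, the oocyte CDK1-inhibiting kinase WEE2 from 28.6 to 0.973 FPKM and the RNA-binding protein ZAR1L from 106 to 4.7 FPKM. The deadenylase subunit CNOT6L, partner of BTG4, moved from 22.8 ± 6.72 to 4.42 ± 2.36 FPKM (log2 fold change -2.21, adjusted p = 0.000454). SYCP3 of the meiotic chromosome axis fell less steeply and remained abundant, from 943 to 194 FPKM. The piRNA factor GTSF1 (429 to 419 FPKM) and OOEP of the subcortical maternal complex (30.8 to 19.3 FPKM) did not pass the test.

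The 2 members that rose were C3H1orf146 (SPO16), a meiotic recombination factor, and PABPC1L, a poly(A)-binding protein of the egg. C3H1orf146 stood at 111, 89 and 89.1 FPKM in the KDM6A morulae and 35.1, 33.6 and 12.8 FPKM in the 8-cell embryos (log2 fold change 1.91, adjusted p = 0.000579). The uninjected morulae were higher still, at 216, 204 and 215 FPKM, and were called against the injected ones (log2 fold change -1.13 for injected minus uninjected, adjusted p = 0.0147), a call lost in 4 of the 6 fits without 1 library. PABPC1L moved from 0.437 ± 0.14 to 1.92 ± 0.261 FPKM. It passed the filter only through the morulae, so its direction was fixed by the selection. Summed over the 35 list members in the files, the level ran from 6579 to 14895 FPKM in the 8-cell libraries and from 897 to 1009 FPKM in the KDM6A morulae. Another 4 members, among them NLRP5, lay under the filter.

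Of 20 listed transcripts that bovine embryos make at genome activation, 8 could be matched and tested. Of these, 5 (62.5%) were lower in the KDM6A morulae, where 25.6% of all genes fell, and the UBTFL1 and KLF17 calls were unstable. KLF5, which later supports trophectoderm and inner cells alike, was the 1 that rose, from 28.4 ± 3.51 to 69.6 ± 8.27 FPKM (log2 fold change 1.26, adjusted p = 0.000356). MBD3L3, a methyl-CpG-binding-like gene, dropped from 526 ± 113 to 23.8 ± 5.63 FPKM (log2 fold change -4.41, SE 0.24, adjusted p = 4.55e-07), far more than the rest. ZSCAN4, a marker of the activation burst, stood at 106, 159 and 120.5 FPKM in the 8-cell embryos and 75.5, 63.7 and 52 FPKM in the KDM6A morulae (log2 fold change -1.0, adjusted p = 0.00263), and KLF4 moved from 219 ± 20.8 to 109 ± 17.3 FPKM. UBTFL1 was called lower, from 31.7 ± 8.74 to 17.9 ± 6.95 FPKM, but not without KDM6A morula replicate 1 (log2 fold change -0.48) or 8-cell replicate 1 (-0.88) or 3 (-0.64). KLF17 was called lower with overlapping groups, at 263, 88.5 and 239 FPKM in the 8-cell embryos and 65, 109.6 and 101 FPKM in the KDM6A morulae (log2 fold change -0.98, adjusted p = 0.0395), and the call was lost in 4 of the 6 fits that left out a library (log2 fold change -0.75 without KDM6A morula replicate 1, -1.06 without KDM6A morula replicate 3, -0.70 without 8-cell replicate 1 and -0.76 without 8-cell replicate 3). CCNA1 and SLC34A2 did not pass the test.

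Pluripotency genes rose in 12 of 19 tested cases (63.2%) and fell in 1 (5.26%), beside 41.1% and 25.6% of all genes. Their median was 1.43, and after quantile normalization 10 rose and 3 fell. POU5F1, the core factor of inner cells, was at 169, 84 and 66 FPKM in the KDM6A morulae and 10.6, 8.31 and 6.27 FPKM in the 8-cell embryos (log2 fold change 3.42, SE 0.34, adjusted p = 1.26e-05). Replicate 1 was the highest morula pool, and even the lowest exceeded every 8-cell library. Uninjected morulae held 145.8, 167 and 124 FPKM. SOX2 was at 16.3, 15.2 and 11.7 FPKM in the KDM6A morulae and 3.05, 1.36 and 1.24 FPKM in the 8-cell embryos (log2 fold change 2.46, adjusted p = 4.97e-05). OTX2, a homeobox factor of epiblast and early neural tissue, stood at 54.6, 83 and 102 FPKM in the KDM6A morulae and 3, 1.61 and 1.77 FPKM in the 8-cell embryos (log2 fold change 4.68, adjusted p = 9.35e-07). NANOG differed from these: it was at 67.9, 60.7 and 32.3 FPKM in the KDM6A morulae and 107, 59 and 94.1 FPKM in the 8-cell embryos, the groups overlapped and the change missed the threshold (log2 fold change -0.71, adjusted p = 0.0661), although it passed after quantile normalization (-0.89), after median-of-ratios scaling (-0.91), without KDM6A morula replicate 1 (-0.91) and without 8-cell replicate 2 (-0.96). The nuclear receptor ESRRB moved from 5.16 ± 2.06 to 27.1 ± 7.35 FPKM, DPPA4 from 23 ± 6.16 to 78.6 ± 4.32 FPKM and the grainyhead-family factor TFCP2L1 from 0.01 ± 0.0173 to 2.06 ± 0.763 FPKM. ZFP42 (REX1) was abundant at both stages, 528 ± 164 and 683 ± 53.9 FPKM, and passed the test only without 8-cell replicate 3 (0.63). The fall was in PRDM1 (4.38 to 0.973 FPKM), a repressor used in germ cell specification, whose call was lost without the filter on low genes (adjusted p = 0.0629).

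The trophectoderm and Hippo pathway list was mixed, with 11 of 22 members (50%) higher and 5 (22.7%) lower, near the 41.1% and 25.6% of all genes. Hippo signalling keeps the coactivators YAP1 and WWTR1 (TAZ) out of the nucleus of inner cells, and in outer cells they join TEAD4 to switch on placental genes. TEAD4 was at 38.2, 32.5 and 22.7 FPKM in the KDM6A morulae and 9.01, 5.23 and 7.66 FPKM in the 8-cell embryos (log2 fold change 1.95, adjusted p = 0.000149). WWTR1 moved from 14.6 ± 4.16 to 77.4 ± 12.8 FPKM (log2 fold change 2.36, adjusted p = 2.38e-05), and the polarity-linked angiomotin AMOTL2 was listed at 0 in every 8-cell library and at 7.3, 6.82 and 5.2 FPKM in the morulae. DAB2, an endocytic adaptor, moved from 11.7 ± 3.44 to 47.9 ± 5.82 FPKM. YAP1 itself was called higher, from 7.63 to 12.6 FPKM (log2 fold change 0.66, adjusted p = 0.0396), but not under quantile (0.35), median-of-ratios (0.47) or TPM scaling (0.56), and the call was lost in 4 of the 6 fits without 1 library (0.54 to 0.69). TFAP2C, which binds many trophectoderm enhancers, fell from a high 8-cell level: it was at 311, 425 and 310.1 FPKM in the 8-cell embryos and 172, 161 and 185 FPKM in the KDM6A morulae (log2 fold change -1.0, adjusted p = 0.000881). GATA3 was at 3.29, 2.33 and 2.56 FPKM in the KDM6A morulae and 1.96, 5.33 and 1.44 FPKM in the 8-cell embryos, with overlapping groups (log2 fold change 0.05, adjusted p = 0.906). GATA2 was low, at 0.93, 0.5 and 0.5 FPKM in the KDM6A morulae and 1.13, 2.82 and 1.1 FPKM in the 8-cell embryos, without overlap (log2 fold change -0.66, adjusted p = 0.0556), and it passed after quantile normalization (-0.93) and without 8-cell replicate 1 (-0.80) or 3 (-0.81). The T-box factor EOMES was at 9.96, 5.71 and 6.26 FPKM in the 8-cell embryos and 0, 0 and 0.03 FPKM in the KDM6A morulae, close to nothing in the morulae. Both ID genes of the list fell: ID2 moved from 373 ± 179.6 to 36.8 ± 16.3 FPKM and ID1 from 15.5 ± 7.64 to 2.23 ± 1.36 FPKM, as ID3 did above.

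For primitive endoderm, the layer that lines the yolk sac, 6 of 11 members (54.5%) rose and 3 (27.3%) fell. Over all genes these shares were 41.1% and 25.6%. GATA6, its transcription factor, moved down, at 35.3, 22.6 and 25.5 FPKM in the 8-cell embryos and 6.01, 10.5 and 9.46 FPKM in the KDM6A morulae (log2 fold change -1.58, adjusted p = 0.000531). FGFR4, a receptor for the FGF signal that sets this fate, moved up, at 24.5, 25.9 and 20.7 FPKM in the KDM6A morulae and 0.7, 0.14 and 0.39 FPKM in the 8-cell embryos (log2 fold change 4.14, adjusted p = 9.71e-07). FGFR4 passed the filter only through the morulae, so its direction was fixed by the selection. The matrix genes SPARC and LAMB1 rose, from 36.4 ± 15.1 to 397 ± 69.5 FPKM and from 2.38 ± 0.636 to 22.8 ± 6.7 FPKM. COL4A1 moved from 0.0133 to 1.91 FPKM. Matrix genes are shared with fibroblasts, whose marker values are given further on.

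Compaction and epithelial genes rose in 22 of 36 tested cases (61.1%) and fell in 7 (19.4%), beside 41.1% and 25.6% of all genes. Their median was 1.44. CDH1 (E-cadherin), which holds the compacting cells together, was at 67.9, 93.4 and 79.4 FPKM in the KDM6A morulae and 19.1, 12.8 and 15.9 FPKM in the 8-cell embryos (log2 fold change 2.27, SE 0.23, adjusted p = 1.55e-05). The lowest morula library was more than 3 times the highest 8-cell library. CLDN6, a tight junction claudin of embryonic epithelium, stood at 741, 520.0 and 502 FPKM in the KDM6A morulae and 34.2, 6.65 and 4.49 FPKM in the 8-cell embryos (log2 fold change 5.67, adjusted p = 1.02e-05). KRT18 and KRT8, which pair into the keratin filaments of simple epithelia, moved from 0.253 ± 0.191 to 34.2 ± 16.6 FPKM and from 0.227 ± 0.273 to 10.01 ± 7.31 FPKM. KDM6A morula replicate 1 was the highest pool in both. Both keratins passed the filter only through the morulae, so their direction was fixed by the selection. PERP of desmosomes was at 124, 104 and 79.4 FPKM in the KDM6A morulae and 3.84, 3.03 and 3.73 FPKM in the 8-cell embryos, and the desmosomal cadherin DSG2 moved from 0.603 to 23.1 FPKM. The tight junction scaffold TJP1 (ZO-1) moved from 2.32 ± 0.735 to 6.36 ± 0.5 FPKM. CLDN10 moved from 14.3 to 141 FPKM and CLDN4 from 0.16 to 9.37 FPKM, the latter with its direction fixed in the same way. Falls included OCLN (occludin), at 136, 359.9 and 252 FPKM in the 8-cell embryos and 25.6, 17.4 and 19.5 FPKM in the KDM6A morulae (log2 fold change -3.43, adjusted p = 9.21e-06), the polarity protein PARD6B (11.3 to 1.6 FPKM) and the cortical linker EZR (114 to 41.5 FPKM). Among genes of cavity formation 5 of 9 (55.6%) rose and 2 (22.2%) fell, a list of few members. The water and glycerol channel AQP3 stood at 116, 91.9 and 71.1 FPKM in the KDM6A morulae and 6.58, 3.35 and 2.84 FPKM in the 8-cell embryos (log2 fold change 4.20, adjusted p = 2.05e-06). The sodium pump beta subunit ATP1B3 moved from 217 to 451 FPKM, while the channel AQP11 fell from 218 to 84.7 FPKM.

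The H3K27 group did not move as 1 unit. Of 10 tested members 3 (30%) rose, 1 of them the injected KDM6A, and 5 (50%) fell, beside 41.1% and 25.6% of all genes. The list's median was -0.47. EZH2, the methyltransferase of polycomb complex 2, did not pass the test: it was at 23.9, 27.1 and 20.7 FPKM in the KDM6A morulae and 24.4, 18.5 and 23.2 FPKM in the 8-cell embryos, with overlapping groups (log2 fold change 0.11, adjusted p = 0.679). Its obligate partners fell. EED, which reads the mark, was at 119, 96.4 and 112 FPKM in the 8-cell embryos and 64.9, 59.8 and 65.4 FPKM in the KDM6A morulae (log2 fold change -0.77, adjusted p = 0.00413), and SUZ12, which holds the complex together, was at 78.5, 86.8 and 66.4 FPKM in the 8-cell embryos and 26.1, 34.2 and 36.6 FPKM in the KDM6A morulae (log2 fold change -1.24, adjusted p = 0.000541). The histone-binding subunit RBBP4 moved from 379 ± 87 to 141 ± 72.6 FPKM, the targeting subunit MTF2 from 60.6 ± 11.4 to 30.1 ± 2.18 FPKM and RBBP7 from 501 ± 92.6 to 354 ± 22 FPKM. RBBP7 lost its call in 5 of the 6 fits without 1 library (log2 fold changes -0.36 to -0.53). JARID2, which guides the complex to its sites, rose and was at 17, 19.8 and 22.8 FPKM in the KDM6A morulae and 5.1, 3.47 and 4.62 FPKM in the 8-cell embryos (log2 fold change 1.95, adjusted p = 7.36e-05), and PHF1 moved from 1.57 ± 0.261 to 4.74 ± 1.05 FPKM. KDM6B, the other H3K27 demethylase, and EZH1 were under the filter, with at most 0.28 and 1.38 FPKM in any of the 6 libraries. EED, SUZ12, EZH2 and JARID2 were not called between injected and uninjected morulae (adjusted p 0.735 to 0.993).

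Polycomb complex 1, which adds ubiquitin to histone H2A, had 6 of its 17 tested members higher and 6 lower (35.3% each). Over all genes these shares were 41.1% and 25.6%. Its main catalytic subunit RNF2 was at 195, 187 and 198 FPKM in the 8-cell embryos and 33.1, 42.2 and 29.7 FPKM in the KDM6A morulae (log2 fold change -2.45, adjusted p = 3.93e-06), and the alternative RING1 moved from 0.77 ± 0.329 to 4.81 ± 1.63 FPKM. RYBP and YAF2, which mark the variant form of the complex, fell from 59.96 ± 12.2 to 9.38 ± 2.12 FPKM and from 83 ± 13.4 to 9.88 ± 2.52 FPKM. BMI1 and PHC1 of the canonical form rose, from 6.37 ± 1.28 to 25.6 ± 3.75 FPKM and from 2.67 ± 0.535 to 18 ± 5.06 FPKM, and the H3K27 reader CBX7 moved from 0.26 to 1.94 FPKM. The list's median was 0.06, and -0.29 after quantile normalization.

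Of 13 tested DNA methylation genes 2 (15.4%) rose, 7 (53.8%) fell and 4 were not called, beside 41.1% and 25.6% of all genes that rose and fell. UHRF1, which carries the maintenance methyltransferase to newly copied DNA, was at 70.5, 37.2 and 68.8 FPKM in the 8-cell embryos and 2.93, 2.48 and 2.13 FPKM in the KDM6A morulae (log2 fold change -4.04, SE 0.29, adjusted p = 2e-06). DNMT1, that methyltransferase, was at 40.7, 48.6 and 76.4 FPKM in the 8-cell embryos and 7.19, 25.1 and 26 FPKM in the KDM6A morulae (log2 fold change -1.60, adjusted p = 0.00698), with replicate 1 the lowest of the KDM6A morulae. Uninjected morulae held 10.4, 5.86 and 8.57 FPKM, near that replicate. The stage call was lost when low genes were not filtered out (adjusted p = 0.0586). DNMT3A, which sets new methylation, was at 8.11, 11.3 and 11.7 FPKM in the KDM6A morulae and 0.48, 1.3 and 0.63 FPKM in the 8-cell embryos (log2 fold change 2.67, adjusted p = 1.75e-05). DNMT3B and TET3 were under the filter at both stages, at no more than 0.81 and 0.21 FPKM. DPPA3 (STELLA), which shields maternal DNA from demethylation, moved from 1618 ± 381 to 418 ± 27.7 FPKM and GADD45A from 139 ± 36.5 to 13.8 ± 8.81 FPKM. UHRF2 moved from 44.2 to 9.93 FPKM and the methyl-CpG reader MBD2 from 52.2 to 7.59 FPKM. The demethylase TET1 was called higher, at 65.4, 121 and 132 FPKM in the KDM6A morulae and 52.5, 44.6 and 61 FPKM in the 8-cell embryos, and missed the threshold without KDM6A morula replicate 2 (0.82) or replicate 3 (0.76).

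Genes of H3K9 methylation, a barrier mark in clones, rose in 10 of 16 tested cases and fell in 3, with a median of 0.81. TRIM28, the scaffold for silencing of transposons, moved from 18.7 ± 6.27 to 74.7 ± 0.67 FPKM, the heterochromatin protein CBX1 from 1.78 ± 0.645 to 19.6 ± 8.64 FPKM, and the demethylases KDM4A and KDM3B from 7.92 ± 1.84 to 37.6 ± 11.5 FPKM and from 0.743 ± 0.232 to 7.62 ± 0.9 FPKM. KDM3A fell, from 17.7 ± 0.331 to 9.42 ± 1.11 FPKM, as did CBX5 (222 to 126 FPKM). SUV39H2 was called lower, from 12.5 to 6.22 FPKM, and lost the call in 4 of 6 fits without 1 library (-0.56 to -0.91). For H3K4 methylation 4 of 14 (28.6%) rose and 3 (21.4%) fell, where 41.1% and 25.6% of all genes did. The list's median of 0.10 turned to -0.16 after quantile normalization. KDM5C and KMT2C rose, from 5.73 to 17.1 FPKM and from 16.2 to 39.6 FPKM, while ASH2L and SMYD3 fell, from 20.8 to 8.83 FPKM and from 29.2 to 8.95 FPKM. The H3K4 demethylase KDM5B did not pass, at 17.5, 19.7 and 23.2 FPKM in the KDM6A morulae and 13.7, 33.3 and 12.3 FPKM in the 8-cell embryos. Among histone acetyltransferases and deacetylases 9 of 18 (50%) rose and 3 (16.7%) fell, beside 41.1% and 25.6% of all genes. HDAC8 was at 68.3, 54.1 and 73 FPKM in the KDM6A morulae and 8.56, 4.76 and 7.73 FPKM in the 8-cell embryos (log2 fold change 3.07, adjusted p = 4.79e-06) and HDAC1 moved from 44.1 ± 9.39 to 156 ± 13.3 FPKM, whereas the acetyltransferase KAT6B fell from 17.8 ± 0.933 to 4.96 ± 2.59 FPKM. EP300 was called lower, from 39.5 to 21.2 FPKM, but not without KDM6A morula replicate 1 (-0.57) or without 8-cell replicate 3 (-0.78).

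**Figure D3:**
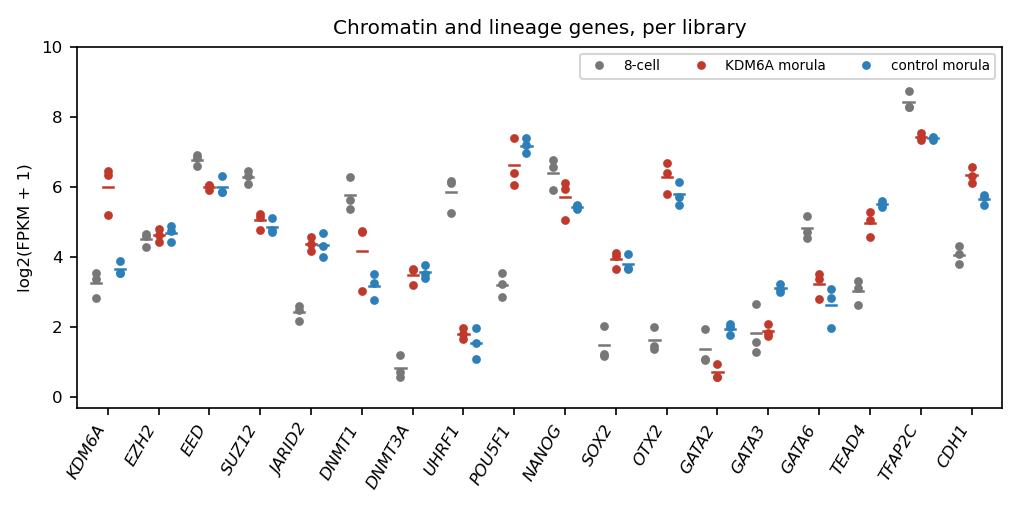
Expression in log2(FPKM + 1) of 18 chromatin, lineage and adhesion genes, with 1 point per library, grey for 8-cell embryos, red for KDM6A morulae and blue for uninjected morulae, and a bar at each mean of 3. KDM6A is high in the red points alone, UHRF1 drops and POU5F1, OTX2 and CDH1 climb in both kinds of morula, and EZH2 and GATA3 overlap between stages.

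Genes for oxidative phosphorylation rose almost without exception. Of 74 tested nuclear-encoded subunits 71 rose and none fell, with a median of 2.06, against 41.1% of all genes. The 3 that did not pass were NDUFB9, NDUFB2 and COX7A1, and NDUFB2 was called lower after quantile normalization (-0.79) and without 8-cell replicate 1 (-0.57) or 3 (-0.69). UQCR11 of complex III was at 427, 407 and 384 FPKM in the KDM6A morulae and 18.4, 22.3 and 22.1 FPKM in the 8-cell embryos (log2 fold change 4.22, SE 0.19, adjusted p = 1.78e-07), and ATP5D of the ATP synthase at 169, 170.2 and 151 FPKM in the KDM6A morulae and 11.5, 4.69 and 8.68 FPKM in the 8-cell embryos (log2 fold change 4.22, adjusted p = 1.33e-06). NDUFA7 of complex I moved from 38.3 ± 17.2 to 612 ± 65.8 FPKM and CYC1, the cytochrome of complex III, from 11.8 ± 7.25 to 167 ± 57.1 FPKM. The groups stood far apart in each, which largely follows from their being the largest rises of the list. The 13 proteins of the mitochondrial genome moved less evenly, 9 up and 2 down, with a median of 0.69. ND2 was at 13734, 8788 and 10092 FPKM in the KDM6A morulae and 2519.8, 3070.2 and 2578 FPKM in the 8-cell embryos (log2 fold change 1.98, adjusted p = 9.65e-06), and MT-ND3 moved from 2725 to 8154 FPKM. COX1 and ATP6 did not pass the test. ATP8, which overlaps ATP6 in the mitochondrial genome so that reads may be shared, was at 7429, 15087 and 7961 FPKM in the 8-cell embryos and 3140.3, 2824 and 2609.5 FPKM in the KDM6A morulae (log2 fold change -1.76, adjusted p = 0.000116). Cytochrome b (cytb) was called lower, from 15512 to 9502 FPKM, and lost the call without KDM6A morula replicate 2 (-0.63) or replicate 3 (-0.61). As a share of all FPKM the 13 genes made up 9.64% to 15.23% of a library.

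Other mitochondrial genes followed in part. Mitochondrial ribosomal proteins rose in 42 of 76 cases and fell in 5. MRPL54 moved from 2.25 ± 1.27 to 41.8 ± 1.63 FPKM and MRPS18A from 22.4 ± 9.16 to 215 ± 22.8 FPKM, and MRPL1 fell from 452 ± 94.9 to 135 ± 14.4 FPKM. Among the SLC25 carriers of the inner membrane 10 of 31 (32.3%) rose and 12 (38.7%) fell, beside 41.1% and 25.6% of all genes. Their median was -0.30. The phosphate carrier SLC25A3, which feeds the ATP synthase, was at 1235, 997 and 793 FPKM in the KDM6A morulae and 74.5, 44.5 and 44 FPKM in the 8-cell embryos (log2 fold change 4.21, adjusted p = 6.1e-07). SLC25A11 moved from 2.45 to 30.1 FPKM. SLC25A31, the adenine nucleotide carrier of germ cells, fell from 13.5 to 1.45 FPKM, and SLC25A33 from 117 to 23.5 FPKM.

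The lists of protein synthesis genes differed in their counts. Cytosolic ribosomal proteins rose in 55 of 75 cases and fell in 4, with a median of 0.87, and after quantile normalization 46 rose and 11 fell. RPS3 was at 4538, 4230.4 and 4437 FPKM in the KDM6A morulae and 995, 621 and 709.8 FPKM in the 8-cell embryos (log2 fold change 2.53, adjusted p = 2.36e-06) and RPLP0 moved from 615 ± 286 to 2095 ± 109 FPKM. RPS23 fell from 1558 ± 361 to 818 ± 85.2 FPKM. RPS4Y1 also fell, from 1540.2 to 644 FPKM, but has a near-identical copy in RPS4X. Many such genes have processed copies, so single values are uncertain. Ribosome assembly factors went both ways, 8 of 28 (28.6%) up and 11 (39.3%) down, with a median of 0.15 (-0.04 after quantile normalization). BOP1 rose from 1.57 to 10.6 FPKM while the box C/D core protein NOP56 fell from 554 ± 168 to 204 ± 19.4 FPKM and the nucleolar chaperone NPM1 from 2572 ± 649.9 to 1083 ± 317 FPKM. Of 57 translation factors 27 (47.4%) rose and 14 (24.6%) fell, near the 41.1% and 25.6% of all genes. EIF4EBP1, the brake on cap-dependent initiation, moved from 10.6 ± 9.3 to 55.9 ± 13.9 FPKM, and EIF4E1B, the cap-binding protein of the egg, fell from 24.9 ± 7.09 to 1.71 ± 0.704 FPKM. EIF2AK1, the heme-regulated kinase that stops initiation, was at 263, 323 and 262 FPKM in the 8-cell embryos and 10.8, 13.1 and 12.5 FPKM in the KDM6A morulae (log2 fold change -4.43, adjusted p = 1.78e-07). Aminoacyl-tRNA synthetases rose in 22 of 34 cases and fell in 2. AARS moved from 2.58 to 25.2 FPKM and IARS2 from 0.333 to 7.97 FPKM, and WARS2 fell from 50.7 to 21.6 FPKM.

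Genes of protein folding, turnover and splicing differed by list. Proteasome genes rose in 33 of 47 cases and fell in 5. PSMB9, a subunit of the immunoproteasome, moved from 4.4 ± 2.2 to 50.5 ± 10.1 FPKM and the assembly chaperone PSMG2 from 54.8 ± 24.9 to 435 ± 24.1 FPKM, while PSMA5 fell from 1073 ± 227 to 608 ± 26.8 FPKM. Of 43 heat shock proteins and chaperonins 22 (51.2%) rose and 8 (18.6%) fell, beside 41.1% and 25.6% of all genes. The mitochondrial pair HSPE1 and HSPD1 moved from 402 ± 232 to 2118 ± 178 FPKM and from 44.9 ± 14.9 to 231 ± 4.84 FPKM, and HSP90AB1 from 31.4 ± 3.97 to 107 ± 16.5 FPKM. DNAJB1, a cofactor induced by heat shock, fell instead and was at 329, 193 and 409 FPKM in the 8-cell embryos and 29.8, 32.4 and 22.8 FPKM in the KDM6A morulae (log2 fold change -3.35, adjusted p = 4.14e-06). Splicing factors were near the median of all genes or under it, 17 of 65 (26.2%) up and 11 (16.9%) down, with a median of 0.07 (-0.06 after quantile normalization). SF3B4 rose from 14.8 to 76.8 FPKM, and SRSF3 and PRPF18 fell from 1909 to 656 FPKM and from 109 to 24.8 FPKM.

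Sugar metabolism genes rose in 22 of 27 cases (81.5%) and fell in 1 (3.7%), beside 41.1% and 25.6% of all genes. GAPDH was at 386, 286 and 262 FPKM in the KDM6A morulae and 17.1, 15.1 and 12.9 FPKM in the 8-cell embryos (log2 fold change 4.27, SE 0.22, adjusted p = 3.32e-07). TALDO1 of the pentose phosphate pathway was at 583, 551 and 425 FPKM in the KDM6A morulae and 57.8, 20.9 and 27.8 FPKM in the 8-cell embryos (log2 fold change 3.95, adjusted p = 3.8e-06), ALDOA moved from 20.8 ± 8.25 to 166 ± 26.7 FPKM and PGAM1 from 51.3 ± 4.31 to 407 ± 92.4 FPKM. The groups did not overlap in any of these, but nor did they in 71.3% of all tested genes. These genes were named with earlier results of these data known. The glucose importer SLC2A1 moved from 5.56 ± 1.75 to 16.6 ± 5.22 FPKM, whereas SLC2A3, abundant at both stages, did not pass the test (189.6 to 196 FPKM). LDHB, the lactate dehydrogenase subunit of oxidative tissue, moved from 199.9 ± 50.3 to 544 ± 131 FPKM, and LDHA did not pass, at 52.1, 24.8 and 30.6 FPKM in the KDM6A morulae and 29, 84.6 and 48.8 FPKM in the 8-cell embryos, except without 8-cell replicate 1 (-0.89). RPE fell, from 219 to 132 FPKM. Lipid genes rose in 22 of 31 cases and fell in 5. ACACA, which makes malonyl-CoA for fatty acid synthesis, was at 16.1, 40.05 and 49.99 FPKM in the KDM6A morulae and 0.48, 0.66 and 1.01 FPKM in the 8-cell embryos (log2 fold change 4.28, adjusted p = 6.88e-06), and PLIN2, which coats lipid droplets, at 217, 172 and 233 FPKM in the KDM6A morulae and 13.7, 10.6 and 10.2 FPKM in the 8-cell embryos (log2 fold change 4.06, adjusted p = 4.09e-07). On the oxidation side CPT1A moved from 1.07 to 6.38 FPKM and HADHA from 3.91 to 14.8 FPKM. Of the cholesterol steps IDI1 fell from 95.2 ± 14.7 to 13.2 ± 2.42 FPKM and MSMO1 from 254 to 141 FPKM.

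Amino acid transporters rose in 10 of 15 cases and fell in 3. The glutamate carriers SLC1A1 and SLC1A3 moved from 9.84 ± 2.5 to 74 ± 5.98 FPKM and from 0.317 ± 0.506 to 7.42 ± 3.57 FPKM. The cationic carriers SLC7A2 and SLC7A3 fell, from 32.9 ± 8.53 to 2.49 ± 0.803 FPKM and from 12.8 ± 4.61 to 0.643 ± 0.0839 FPKM. SLC1A3 passed the filter only through the morulae and SLC7A3 only through the 8-cell libraries, so their directions were fixed by the selection. Of 18 one-carbon genes 6 (33.3%) rose and 5 (27.8%) fell, near the 41.1% and 25.6% of all genes. GLDC and GCSH of the glycine cleavage system moved from 10.6 ± 5.48 to 95.1 ± 14.3 FPKM and from 299 ± 72.7 to 1685 ± 244 FPKM, yet DLD, a component shared with pyruvate dehydrogenase, fell from 486 ± 18.8 to 182 ± 15.2 FPKM. AHCY, which clears S-adenosylhomocysteine, moved from 6.66 ± 1.49 to 67.2 ± 47 FPKM with replicate 1 the highest morula.

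Oxidant defence and metal-binding genes rose in 15 of 23 cases (65.2%) and fell in 3 (13%), beside 41.1% and 25.6% of all genes. Their median was 1.52. The metallothionein MT2A was at 433, 515 and 499 FPKM in the KDM6A morulae and 7.41, 39.3 and 16.8 FPKM in the 8-cell embryos (log2 fold change 4.73, adjusted p = 8.09e-06). MT3 went the other way and was at 11.9, 19.4 and 22.1 FPKM in the 8-cell embryos and 0.56, 0.5 and 0.81 FPKM in the KDM6A morulae (log2 fold change -3.50, adjusted p = 4.03e-06). MT3 passed the filter only through the 8-cell libraries, so its direction was fixed by the selection. The peroxide-removing peroxiredoxins PRDX2 and PRDX1 moved from 176 ± 15.6 to 1625 ± 199.8 FPKM and from 309.6 ± 42.1 to 1299.8 ± 88.5 FPKM, and thioredoxin (TXN) from 141 ± 33 to 487 ± 93.4 FPKM. SOD1 did not pass, at 269, 356 and 437 FPKM in the KDM6A morulae and 323, 370.1 and 314 FPKM in the 8-cell embryos. GCLC, the rate-limiting enzyme of glutathione synthesis, fell from 32.7 ± 16.5 to 8 ± 1.7 FPKM.

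Most galectins, annexins, S100 proteins and actin regulators rose, where 41.1% of all genes rose and 25.6% fell. Of 7 galectins 6 rose. LGALS1 moved from 59.9 ± 17.2 to 487 ± 63.3 FPKM, and LGALS8 was called lower, from 51.6 to 32.5 FPKM, but not without KDM6A morula replicate 3 (-0.63) or 8-cell replicate 3 (-0.57). Of 6 annexins, which bind membrane phospholipid in the presence of calcium, 5 rose and none fell. ANXA2 moved from 265 ± 108 to 955 ± 44.9 FPKM and ANXA5 from 18.4 ± 2.14 to 118 ± 7.13 FPKM. Of 11 S100 genes 9 rose and 1, S100Z, fell (5.67 to 0.07 FPKM). S100A2 moved from 125 ± 49 to 996 ± 382 FPKM and S100A14 from 2.02 ± 2.26 to 48.3 ± 13.4 FPKM. Tropomyosins and actin regulators rose in 24 of 32 cases and fell in 3. Cytoplasmic actin ACTG1 was at 1125, 682 and 625 FPKM in the KDM6A morulae and 48.3, 25.2 and 14.2 FPKM in the 8-cell embryos (log2 fold change 4.86, adjusted p = 3.04e-06). TPM2, TPM4 and TPM1, which lie along the filament, moved from 2.65 ± 1.52 to 61.3 ± 4.9 FPKM, from 17.3 ± 1.76 to 237 ± 119 FPKM and from 7.01 ± 2.76 to 88.4 ± 55.1 FPKM. The filament-capping CAPG moved from 1.8 to 52.9 FPKM. TMSB10, which holds actin monomers, was called lower from a very high level, 14475 ± 5429 to 8177 ± 785 FPKM, but not after quantile normalization (-0.38) or without KDM6A morula replicate 1 (-0.69).

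Of 16 genes on the importin list 8 (50%) rose and 3 (18.8%) fell, beside 41.1% and 25.6% of all genes. Importin alpha proteins carry cargo with a nuclear localisation signal into the nucleus. KPNA7, the form of the egg, was at 103, 96 and 149 FPKM in the 8-cell embryos and 4.41, 3.53 and 4.41 FPKM in the KDM6A morulae (log2 fold change -4.50, SE 0.24, adjusted p = 4.24e-07). KPNA2, the form of somatic and pluripotent cells, was at 320.2, 335 and 280.3 FPKM in the KDM6A morulae and 221, 168 and 209 FPKM in the 8-cell embryos (log2 fold change 0.65, adjusted p = 0.00957). KPNB1, the beta partner, moved from 3.03 ± 1.06 to 17.1 ± 7.05 FPKM, and the GTPase RAN, which sets the direction of transport, was at 211, 235 and 197 FPKM in the KDM6A morulae and 18, 15.1 and 14.8 FPKM in the 8-cell embryos (log2 fold change 3.67, adjusted p = 4.09e-07). KPNA5 fell, from 8.16 to 1.77 FPKM.

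Cell cycle genes went both ways, 10 of 28 (35.7%) up and 11 (39.3%) down, beside 41.1% and 25.6% of all genes. Their median was 0.15 and reached 0 or just below it under other scalings. CDC25A, the phosphatase that opens S phase, was at 36, 28 and 21.5 FPKM in the KDM6A morulae and 0.67, 2.07 and 0.11 FPKM in the 8-cell embryos (log2 fold change 4.02, adjusted p = 8.34e-06). CDK4, the kinase of G1, was at 84.3, 66.1 and 39.8 FPKM in the KDM6A morulae and 13.8, 7.95 and 11.2 FPKM in the 8-cell embryos (log2 fold change 2.39, adjusted p = 6.67e-05), and its partner CCND2 moved from 0.35 ± 0.437 to 5.09 ± 2.89 FPKM. The mitotic kinases CDK1 and AURKA fell. CDK1 was at 589.8, 652 and 781 FPKM in the 8-cell embryos and 159, 228 and 206 FPKM in the KDM6A morulae (log2 fold change -1.77, adjusted p = 2.57e-05), and AURKA moved from 533 ± 125 to 228 ± 30.5 FPKM, but CDC20 rose, from 51.1 ± 10.7 to 121 ± 22.7 FPKM. The CDK4 inhibitor CDKN2C fell from 51 ± 24.5 to 6.95 ± 2.53 FPKM. Among the most abundant 8-cell transcripts, CKS2 of the CDK1 complex and the histone variant H2AFZ fell from 12117 ± 1028 to 2647 ± 572 FPKM and from 11490.0 ± 532 to 2606 ± 14.1 FPKM. Of 25 replication licensing genes 10 (40%) rose, near the 41.1% of all genes, and 4 (16%) fell, where 25.6% of all genes did. GINS1 moved from 24.9 ± 5.39 to 169 ± 16.5 FPKM and MCM5 from 2.94 ± 0.597 to 15.2 ± 4.55 FPKM, and ORC4 fell from 158 ± 41.9 to 27.9 ± 3.44 FPKM and the loader CDC6 from 42.7 ± 7.73 to 11.7 ± 1.97 FPKM. BCL2L10, a survival factor of the egg, was at 145, 151 and 215 FPKM in the 8-cell embryos and 9.88, 4.6 and 5.06 FPKM in the KDM6A morulae (log2 fold change -4.56, adjusted p = 9.71e-07).

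Few imprinted genes were measurable, and of 6 tested 1 (16.7%) rose and 2 (33.3%) fell, beside 41.1% and 25.6% of all genes. The rise was in NAP1L5 (0 to 1.6 FPKM), which passed the filter only through the morulae, so its direction was fixed by the selection. PHLDA2, a maternally expressed brake on placental growth, was at 33.5, 19.3 and 25.1 FPKM in the 8-cell embryos and 1.91, 1.06 and 1.06 FPKM in the KDM6A morulae (log2 fold change -3.51, adjusted p = 4.05e-06). SNRPN (118 to 160.1 FPKM) and NDN (5.53 to 9.29 FPKM) did not pass, though SNRPN did without KDM6A morula replicate 1 (0.58). MEST was called lower, from 9.03 to 3.6 FPKM, but not without KDM6A morula replicates 2 (-1.14) or 3 (-0.81) or 8-cell replicate 2 (-0.79). Of 11 RNA-sensing and interferon genes 5 (45.5%) rose and 2 (18.2%) fell, beside 41.1% and 25.6% of all genes. IFITM3, a membrane antiviral factor also found in germ cells, was at 117, 70.03 and 124 FPKM in the KDM6A morulae and 2.28, 20.9 and 1.76 FPKM in the 8-cell embryos, where replicate 2 was the highest, and STAT2 moved from 2.45 ± 0.14 to 11.2 ± 1.55 FPKM. Of 325 genes tested on the X chromosome, where KDM6A lies, 42.5% rose and 27.1% fell, with a median of 0.32, and of 9005 autosomal genes 41.8% rose and 24.6% fell, with a median of 0.37.

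**Figure D4:**
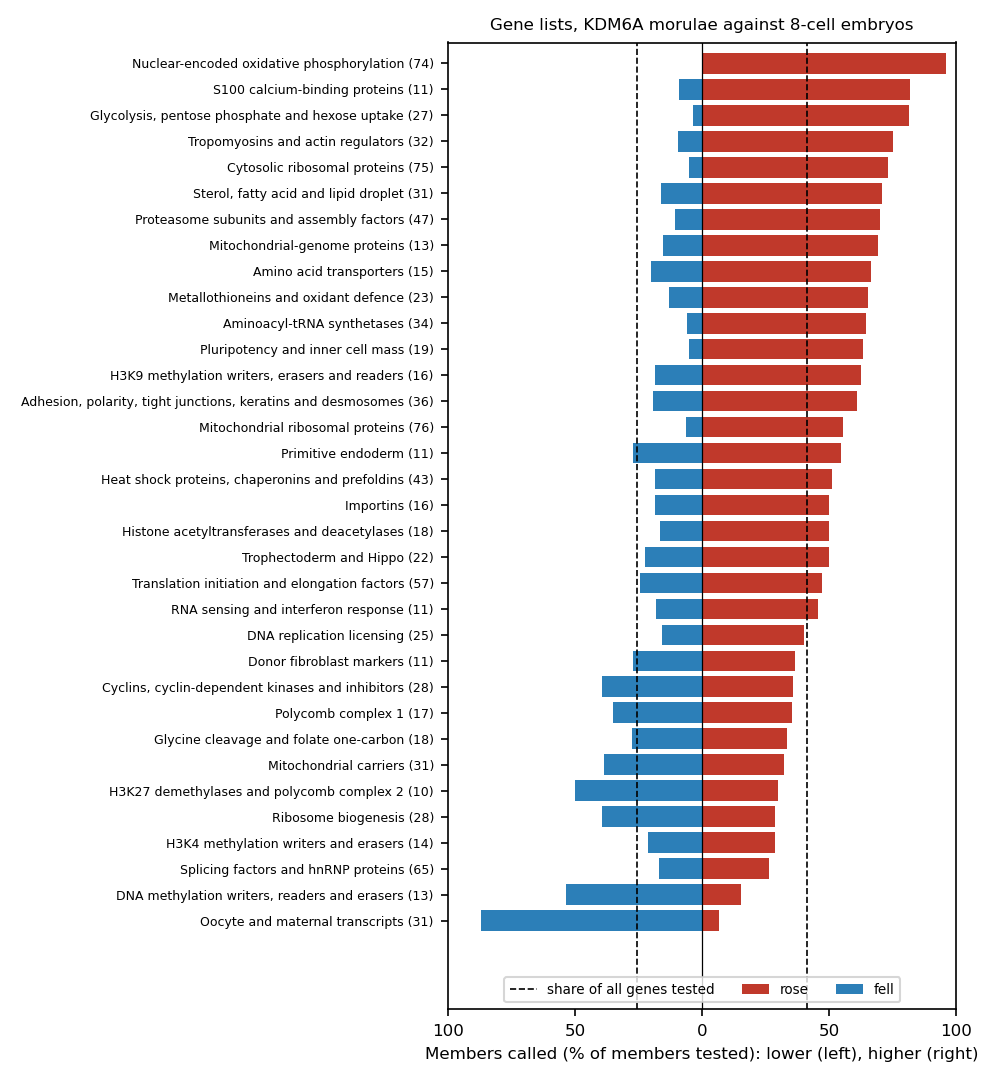
Share of the tested members of each gene list that rose (red, to the right) or fell (blue, to the left), in percent, for the 34 lists shown, each with at least 10 tested members, whose number is in parentheses. Dashed lines mark the shares over all tested genes, 41.1% and 25.6%, and oxidative phosphorylation and oocyte transcripts are the ends of the ranking.

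Markers of the donor fibroblast and of cumulus cells were read beside these groups. Of 11 tested fibroblast markers 4 (36.4%) rose and 3 (27.3%) fell, near the 41.1% and 25.6% of all genes. Summed over the 23 markers in the files, the level ran from 562 to 642 FPKM in the KDM6A morulae and from 41.8 to 96.3 FPKM in the 8-cell embryos. TIMP1, a protease inhibitor (9.08 ± 5.64 to 481 ± 59.6 FPKM), and FN1, fibronectin (0.617 ± 0.765 to 66 ± 14.7 FPKM), make up most of the morula sum, and neither is particular to fibroblasts. The defining collagens COL1A1, COL1A2 and COL3A1 were at 1.17 FPKM or less in every KDM6A morula. They were highest in 8-cell replicate 2, at 5.09, 2.68 and 2.48 FPKM, where LUM was at 29.11 FPKM. THY1 rose from 0.01 ± 0.0173 to 3.82 ± 3.53 FPKM, with KDM6A morula replicate 1 the highest. S100A4 also rose, from 4.07 ± 0.663 to 15.5 ± 3.52 FPKM. DCN did not pass the test, at 23.7, 10.7 and 7.63 FPKM in the KDM6A morulae and 10.7, 16.8 and 11.1 FPKM in the 8-cell embryos. The 3 falls were in LUM, FBN1 (5.51 to 0.0433 FPKM) and COL5A1 (2.61 to 0.0233 FPKM). FBN1 and COL5A1 passed the filter only through the 8-cell libraries, so their direction was fixed by the selection. The 12 cumulus and granulosa markers summed to 8.97 to 16.4 FPKM in the KDM6A morulae and 19.2 to 37.3 FPKM in the 8-cell embryos. HAS2, which makes the hyaluronan of the cumulus matrix, was at 5.57, 19.8 and 9.34 FPKM in the 8-cell embryos and 0.42, 0.14 and 0.37 FPKM in the KDM6A morulae. It passed the filter only through the 8-cell libraries, so its direction was fixed by the selection. TNFAIP6 fell from 7.4 to 3.06 FPKM, and STAR did not pass the test (6.82 to 6.36 FPKM). HSD3B1, under the filter, was at 0.32, 0.11 and 0.84 FPKM in the 8-cell embryos and 2.58, 1.47 and 0.94 FPKM in the KDM6A morulae. GATM, also under it, was at 0.03, 0.34 and 0 and at 2.06, 0.62 and 0.43 FPKM. INHA was listed at 0 in all 6 libraries. The part of such cells in the rises of SPARC, LAMB1 and the actin regulators, or in the fall of HAS2, was not tested.

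Few genes were called between injected and uninjected morulae. Of 9777 genes tested between them, 16 (0.164%) were called, 12 higher and 4 lower with injection. That count was 745 without KDM6A morula replicate 1, the pool that stands apart, and 4, 6 and 1 without uninjected replicate 3, KDM6A morula replicate 2 and KDM6A morula replicate 3. Both comparisons use the same KDM6A libraries, so their values for these genes are given side by side and not as independent evidence.

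Of these 16, 4 with a name were 8-cell transcripts that stood between the 8-cell and the uninjected morula level. MBD3L3 was at 595, 395 and 588 FPKM in the 8-cell embryos and 28.9, 17.8 and 24.8 FPKM in the KDM6A morulae, and at 4.86, 3.57 and 0.95 FPKM in uninjected morulae (injected minus uninjected 2.70, adjusted p = 0.0147). The zinc finger gene ZNF41 was at 129, 115 and 123 FPKM in the 8-cell embryos and 5.02, 3.56 and 4.86 FPKM in the KDM6A morulae, and at 0.41, 0.09 and 0 FPKM in uninjected morulae (2.24, adjusted p = 0.00574). LOC511494 was at 93.9, 257 and 182 FPKM in the 8-cell embryos and 6.3, 3.24 and 6.1 FPKM in the KDM6A morulae, and at 0.8, 0.96 and 0.48 FPKM in uninjected morulae (adjusted p = 0.0213). LOC530538 was at 92.2, 102 and 119 FPKM in the 8-cell embryos and 2.29, 1.5 and 1.94 FPKM in the KDM6A morulae and was listed at 0 in all uninjected morulae (adjusted p = 0.0147). In each of these genes all 3 injected libraries lay above all uninjected ones and below all 8-cell ones, an order that largely follows from how the genes were picked. The MBD3L3 and ZNF41 calls between morulae were lost without KDM6A morula replicate 3 (adjusted p = 0.119 and 0.0694) and in no other fit without 1 library, whereas those of LOC511494 and LOC530538 were each lost in 4 of 6 such fits.

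Others were above both. The tropomyosin TPM2 was at 56.8, 66.5 and 60.5 FPKM in the KDM6A morulae and 0.93, 3.81 and 3.2 FPKM in the 8-cell embryos, and at 29.4, 17.2 and 20.4 FPKM in uninjected morulae (adjusted p = 0.0213). TNP2, a transition protein of sperm chromatin, was at 18.5, 23.5 and 24.4 FPKM in the KDM6A morulae and 0.35, 1.37 and 0 FPKM in the 8-cell embryos, and at 7.44, 5.9 and 7.84 FPKM in uninjected morulae (adjusted p = 0.0147). The largest rise of any row over the 8-cell embryos, 7.84 on the log2 scale, was in 1 of the rows named for cytochrome c (ENSBTAG00000023823.1): it stood at 452, 336 and 719 FPKM in the KDM6A morulae and 5.7, 0.38 and 0 FPKM in the 8-cell embryos, and at 8.13, 17.6 and 19.2 FPKM in uninjected morulae (adjusted p = 0.000135). Its name belongs to more than 1 row, so reads may be divided between copies. It kept its call between morulae in all 6 fits without 1 library, and TPM2 and TNP2 lost theirs in 4. The serine protease PRSS33 and the surface glycoprotein CD52 were called between the morulae and missed the threshold against the 8-cell embryos. PRSS33 was at 10.7, 7.51 and 8.25 FPKM in the KDM6A morulae and 22.7, 8.19 and 23.7 FPKM in the 8-cell embryos, with 2.55, 1.85 and 1.56 FPKM in uninjected morulae, and the stage test gave an adjusted p of 0.0638, or 0.00176 without 8-cell replicate 2.

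**Figure D5:**
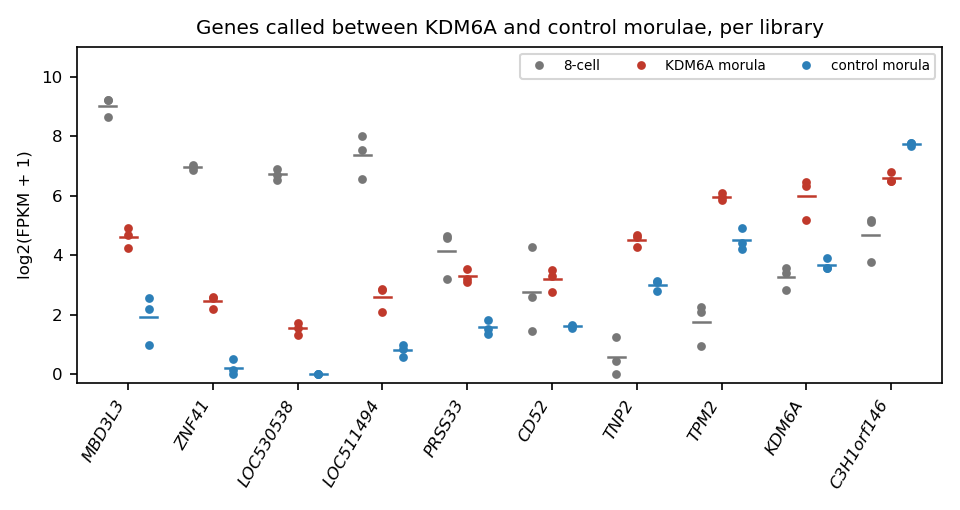
Expression in log2(FPKM + 1) of 10 named genes called between injected and uninjected morulae, with 1 point per library, grey for 8-cell embryos, red for KDM6A morulae and blue for uninjected morulae, and a bar at each mean of 3. MBD3L3, ZNF41, LOC530538 and LOC511494 fall from grey through red to blue, while TNP2, TPM2 and KDM6A are highest in red and C3H1orf146 is highest in blue.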

How the data were processed

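FPKM per gene were deposited by the authors, 1 table per library with 2 decimals, an Ensembl gene ID and a symbol. Per the submitters' processing notes, the tools were RSEM 1.2.12, Bowtie2 2.2.5, StringTie 1.0.4, HISAT 0.1.6 and bcl2fastq 2.16 with build UMD3.1, and no source used here says which of them gave the FPKM. No counts were used here and low values showed no whole-read steps (the most common ratio bin of 0.1 log2 held 4.5% to 7.98% of genes), so depth is unknown and no counting interval is given.

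The 6 tables were joined by gene ID: 16129 genes were in all of them, 584 in morula tables only and 545 in 8-cell tables only. Genes that reached 1 FPKM in 3 or more of the 6 libraries were tested on log2(FPKM + 1) with limma 3.58.1 (lmFit, eBayes with trend, R 4.3.3) and Benjamini-Hochberg adjustment, threshold 0.05, each comparison on its own 6 libraries. On simulated data for 10024 genes with 200 changed, 36% of changes of 1 log2 unit and 99% of changes of 2 were recovered, with 17 false calls. The data had 6689 calls, and the adjustment is less strict when more genes change. The simulated shares therefore do not give the sensitivity of the comparison with 8-cell embryos. KDM6A was also tested by exact permutation. Symbols were checked against RefSeq, by name only, and 15030 genes had one. Rows that share a symbol or whose symbols conflict are not named, except 1 given by its ID.

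Named genes were the 12 largest rises and falls without overlap between groups, with a higher mean of at least 10 FPKM, more than 0 FPKM in some library of the lower group and a symbol that is no placeholder. Added to them were up to 6 genes listed at 0 at a stage, a list of genes of interest, and the top 2 per direction of each of 41 gene lists with at least 5 FPKM, 189 in all. A further 125 were chosen after their values were seen. Members and lists were chosen with earlier results of these data known. Alternatives were other pseudocounts (0.1, 0.5), filters (none, 5 FPKM), scalings (quantile, median-of-ratios, TPM, without mitochondrial-genome genes), all 9 libraries in 1 fit, a replicate block, limma's treat and leaving out each library. Some items are not reported here.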

Additional observations from a re-analysis of the deposited data

How the results depend on the processing

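The stage comparison called between 6558 and 7185 genes under other pseudocounts, filters and scalings, except 4736 of 6926 genes with a filter of 5 FPKM, and 2515 when tested against a change of 1 log2 unit. Leaving out each library gave 5869 to 6635 calls, and for KDM6A itself log2 fold changes of 2.51 to 3.14. Injected against uninjected morulae was less stable: 16 genes called by limma became 0 without a filter (1580 at an unadjusted p under 0.05), 25 on the TPM scale, 28 after quantile normalization, 1 by treat, 10 in a fit of all 9 libraries, and 1 to 745 when each library was left out. The cause was not tested.

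Replicate numbers did not pair the samples: deviations of same-numbered KDM6A morula and 8-cell libraries correlated at 0.063, -0.087 and 0.083, and not every library correlated best with its own number. With the replicate number as a block 6653 genes were called between stages and 1 between the morulae.

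No called gene that is named reversed its direction under any alternative run. By setting, calls lost numbered 17 without a filter, 6 after quantile normalization, 2 under median-of-ratios scaling, 4 with the block, 88 against a change of 1 log2 unit and between 6 and 16 without 1 library, of 313 results each at most. Depth is unknown, so what it limits could not be given. Changes of 1 log2 unit were found in 36% of simulated cases, but with only 200 genes changed, so this share does not describe the data.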

Other observations

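Some rows were listed in the tables of a single stage and entered no comparison. Among those in morula tables only, 25 had a KDM6A morula mean of at least 10 FPKM. RPS29, a small-subunit ribosomal protein, was at 1878, 2232 and 2388 FPKM in KDM6A morula replicates 1 to 3, and RPS27L, an RPS27-like protein, was at 183, 198 and 162 FPKM. KCTD11 was at 5.61, 4.33 and 3.69 FPKM. Among rows in 8-cell tables only, 1 had a mean of at least 10 FPKM. The chemokine CCL20 was at 0, 4.93 and 2.05 FPKM, the homeobox gene BSX at 1.12, 2.29 and 1.38 FPKM, and the placental gene PLAC1 at 0, 3.72 and 0.65 FPKM. A row missing from a table is not a measured 0.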
